A study of Mus musculus with 8 samples.

Results

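The 9 genes described here encode the endothelin and angiotensin peptides, the enzymes that mature them and their receptors. They are Edn1, Edn3, Ednra, Ednrb, Ece1, Ace, Agt, Agtr1a and Agtr2, taken by their gene symbols from a gene table of 23100 loci, of which 12133 were tested for a difference between genotypes. The RNA came from cardiac ventricles of mice aged 4.5 months, 4 per genotype. All 8 mice were Sox5fl/fl and Sox6fl/fl, that is, they carried loxP-flanked alleles of both SoxD transcription factor genes. The 4 mice labelled as double knockouts (DKO) were aMHC-Cre pos and thus expressed Cre recombinase from a promoter active in cardiomyocytes, and the 4 control mice (Ctrl) were aMHC-Cre neg. By this design, cells of the ventricle other than cardiomyocytes are expected to keep both targeted genes in DKO, but which cells lost them was not tested. Cre cannot be told apart from the deletion, because the controls carry no Cre. Although pressure overload is named in the title of the series, no operation is given in these mice's labels.

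Endothelins are short peptides cut from larger precursors. Endothelin-converting enzyme, encoded by Ece1, performs the last cut, and the peptides act through the receptors ETA (Ednra) and ETB (Ednrb). Angiotensinogen (Agt) is cut by renin to angiotensin I, angiotensin-converting enzyme (Ace) turns that into angiotensin II, and the receptors AT1 (Agtr1a and Agtr1b in mice) and AT2 (Agtr2) bind it. ETA and AT1 couple mainly to Gq and drive vessel constriction, myocyte growth and matrix production, while ETB on endothelium releases nitric oxide.

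All levels are the authors' FPKM values (fragments per kilobase of transcript, scaled to the mapped fragments of a library), which are per length and can be compared between genes. The authors deposited 1 value per genotype, so there is no value, spread or error per animal, and each authors' q below comes from Cuffdiff, in the authors' deposited table. Whether the values of single animals overlapped between the genotypes is not known here. A gene is called when q is at most 0.05. Sox6 had 1.69 FPKM in DKO against 3.39 in Ctrl (authors' q = 0.00158), which is the direction of the label. Sox5, at 0.497 FPKM in DKO and 0.369 in Ctrl, was not tested, and its gene total was not lower in DKO, so that it shows no loss of Sox5. The labels do not name the loxP-flanked exons, and a gene total also counts reads from outside them. The ventricular marker Myl2 was at 17014 and 20639 FPKM, and the atrial marker Myl7 at 0.140 and 0.192 FPKM. The total reads per library are unknown here, so no counting interval is given.

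Of the 9 genes, 8 were tested and 3 were called, all higher in DKO: Edn3, Agt and Ace. That is 37.5% of the 8, beside 7.36% of all tested genes called, 4.30% called higher and 3.06% called lower. Neither endothelin receptor, nor Edn1, Ece1 or Agtr1a was called, and Agtr2 was listed at 0 in both genotypes and not tested. Of the 8 tested genes, 6 had log2 ratios (DKO over Ctrl) above 0 and 2 below, with a median of 0.13, against a median of -0.00 over all tested genes. By unadjusted p under 0.05, 4 of the 8 genes differed, the 3 called and Agtr1a.

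To show what precedes the start sites of the called genes, the 250 bases before the annotated start of Edn3, Agt and Ace are printed with those of Edn1, the other endothelin gene among the 9. They were read from RefSeq's promoter table for GRCm38.p6, a later build than the mm9 of the expression tables, and 8 of the 9 genes had an entry by symbol. Capitals mark ACAAT, the core that HMG-box proteins of the Sox family bind, and TATAAA, the TATA box, on either strand (ATTGT and TTTATA are their complements). The positions are chr13:42301226-42301475 on the plus strand for Edn1, chr2:174760369-174760618 on the plus strand for Edn3, chr8:124569707-124569956 on the minus strand for Agt and chr11:105967698-105967947 on the plus strand for Ace, the upstream of its 2 annotated starts.
Edn1: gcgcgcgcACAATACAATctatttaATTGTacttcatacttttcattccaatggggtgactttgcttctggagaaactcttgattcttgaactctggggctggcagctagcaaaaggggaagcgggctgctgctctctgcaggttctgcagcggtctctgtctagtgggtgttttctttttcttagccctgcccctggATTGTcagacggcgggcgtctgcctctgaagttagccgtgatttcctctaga
Edn3: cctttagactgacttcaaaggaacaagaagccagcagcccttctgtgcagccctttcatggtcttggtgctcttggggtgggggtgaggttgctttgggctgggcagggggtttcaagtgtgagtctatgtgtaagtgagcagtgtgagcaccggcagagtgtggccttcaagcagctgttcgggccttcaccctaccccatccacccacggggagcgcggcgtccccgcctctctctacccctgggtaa
Agt: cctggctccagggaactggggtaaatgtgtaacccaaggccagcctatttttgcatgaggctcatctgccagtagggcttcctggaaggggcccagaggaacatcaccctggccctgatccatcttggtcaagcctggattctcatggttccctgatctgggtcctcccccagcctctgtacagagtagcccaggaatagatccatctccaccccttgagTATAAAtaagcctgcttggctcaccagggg
Ace: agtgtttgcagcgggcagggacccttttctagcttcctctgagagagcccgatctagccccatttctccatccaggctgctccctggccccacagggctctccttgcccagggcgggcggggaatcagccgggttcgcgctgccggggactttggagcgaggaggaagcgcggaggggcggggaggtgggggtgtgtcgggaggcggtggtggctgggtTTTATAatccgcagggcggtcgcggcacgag
Edn1, which was not called, held 4 matches of ACAAT, of which the nearest began 52 bases before the start. The sequence before Edn3 held neither motif. Agt had TATAAA beginning 30 bases before its start, and Ace had it on the other strand, beginning 31 bases before. Over the 12 annotated starts of the 8 matched genes, 2 had ACAAT within 250 bases, the one printed for Edn1 and another of Ece1. Among 32851 promoters of the same length in that table, 27.7% held ACAAT and 12.4% held TATAAA. The motifs overlap in no printed sequence. A match describes letters only, and whether these starts were those used in the ventricles was not tested.

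Both endothelin genes were expressed at low levels, and Edn3 rose. Edn3, the endothelin-3 gene best known for neural crest development through ETB, had 3.60 FPKM in DKO against 1.48 in Ctrl. It was 2.43-fold higher in DKO (log2 1.28, authors' q = 0.00158), and with 1 FPKM added to both values the log2 ratio was 0.89. By fold, Edn3 ranked 37 among the 522 genes called higher. In Ctrl only 7.30% of tested genes had a lower level than Edn3, and in DKO 21.5% did. Edn1, the endothelin-1 gene expressed chiefly by endothelium, was not called, with 4.19 FPKM in DKO against 3.62 in Ctrl (log2 0.21, authors' q = 0.582). Edn3 thus made up 46.2% of the summed FPKM of the pair in DKO and 29.1% in Ctrl, with sums of 7.79 and 5.10 FPKM. Each of these genes had a single transcript, of 2963 bases for Edn3 and 2344 for Edn1. In mm9, Edn3 lies on chromosome 2 at 174586274 to 174609543 and Edn1 on chromosome 13 at 42396639 to 42403358.

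Agt, the only precursor of the angiotensins, had 2.93 FPKM in DKO against 1.91 in Ctrl. It was 1.53-fold higher in DKO (log2 0.62, authors' q = 0.0340). It ranked 232 by fold among the higher genes. Its single transcript of 1839 bases carried the same FPKM and p in the isoform table, where adjustment over 18490 isoforms gave an authors' q of 0.0659, so that it was not called there. Agt lies on chromosome 8 at 127080487 to 127093607.

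**Figure D1:**
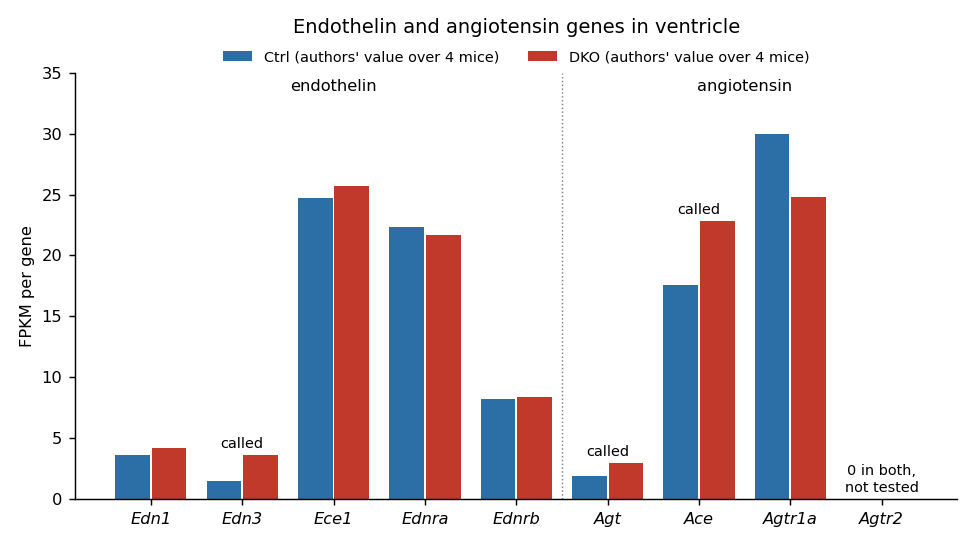
FPKM per gene (vertical axis) of the 9 genes in Ctrl (blue) and DKO (red), each bar being the authors' 1 value for a genotype, without an error per animal. Edn3, Agt and Ace are called higher, at 3.60, 2.93 and 22.8 FPKM in DKO against 1.48, 1.91 and 17.6 in Ctrl, and Agtr2 is listed at 0.

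Of the converting enzymes, Ace rose and Ece1 was not called. Ace had 22.8 FPKM in DKO against 17.6 in Ctrl, 1.29-fold higher (log2 0.37, authors' q = 0.00517). By fold it ranked 448 among the 522 higher genes, under the fold of 1.3 that the authors used for a shorter list. In FPKM, its difference of 5.11 between genotypes exceeded the 2.12 of Edn3 and the 1.02 of Agt. Ece1 had 25.7 FPKM in DKO against 24.7 in Ctrl (log2 0.06, authors' q = 0.895). Ace lies on chromosome 11 at 105829259 to 105851278 and Ece1 on chromosome 4 at 137418152 to 137521144.

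None of the receptor genes was called. Agtr1a, the main AT1 receptor gene, had the highest level of the 9 genes in Ctrl, at 30.0 FPKM, and was at 24.8 in DKO (log2 -0.27, authors' q = 0.0791). Ednra, the ETA gene, had 21.7 FPKM in DKO against 22.3 in Ctrl (log2 -0.04, authors' q = 0.948). Ednrb, the ETB gene, was at 8.35 and 8.19 FPKM (log2 0.03, authors' q = 0.967). Ednra was therefore 2.60 times the level of Ednrb in DKO and 2.72 times in Ctrl. Agtr1b, the other mouse AT1 gene, was at 0.0109 and 0.0164 FPKM and not tested. Agtr1b is closely similar in its coding sequence to Agtr1a, and the sources used here do not say how shared reads were split, so the single values of this pair are uncertain. In mm9, Agtr1a lies on chromosome 13 at 30428225 to 30474736, Ednra on chromosome 8 at 80186928 to 80248351, Ednrb on chromosome 14 at 104213842 to 104243390 and Agtr2 on chromosome X at 21061752 to 21065957. No other locus of the gene table overlapped any of the 9.

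In Ctrl the levels ran from Agtr1a through Ece1 (24.7 FPKM), Ednra, Ace, Ednrb, Edn1 and Agt to Edn3. In DKO the 4 genes with the highest levels were Ece1, Agtr1a, Ace and Ednra, between 25.7 and 21.7 FPKM, and Edn3 stood above Agt. Without a spread over animals, neighbours in these orders cannot be told apart.

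**Figure D2:**
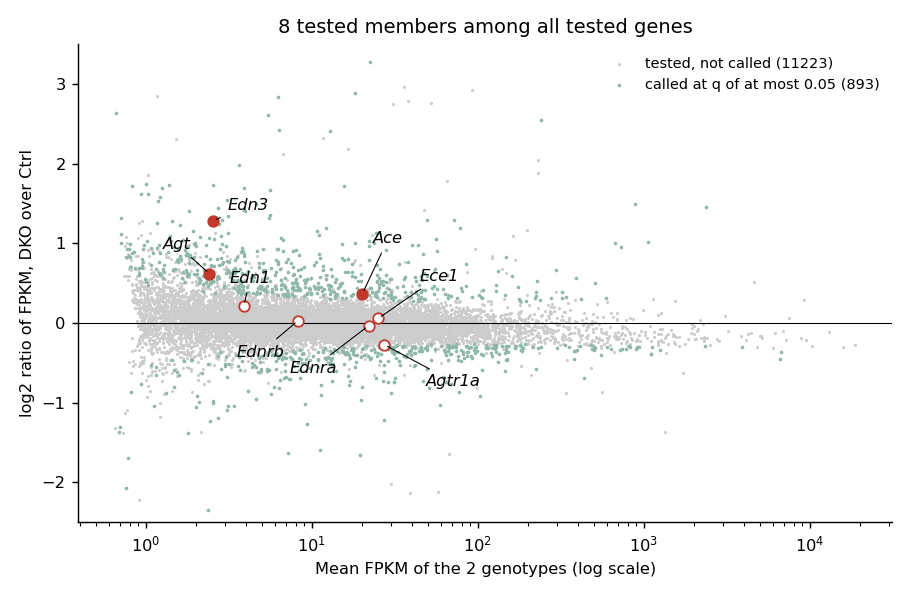
The log2 ratio of DKO over Ctrl (vertical axis) against the mean FPKM of the genotypes (horizontal log axis) for 12113 of the 12133 tested genes. Called genes are in green, and the 8 tested endothelin and angiotensin genes are large circles (filled when called). Left out are 3 genes outside the vertical range and the tested genes at 0 FPKM in a genotype, which have no finite ratio. Edn3 at 1.28 stands apart from Agtr1a, Ednra, Ednrb, Ece1 and Edn1, which lie between -0.27 and 0.21.

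The isoform table listed 14 transcripts of the 9 genes, and 5 genes had a single transcript. Of 13 tested isoforms, those of Edn3 and the longer one of Ace were called, both higher, beside 3.02% of all tested isoforms. Of 12 tested start site groups (transcripts that share a start), 3 were called, beside 4.94% of all, and of 9 tested coding sequences 3, beside 4.64%. In both of these tables the 3 were Edn3, Agt and Ace.

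Ace has a long somatic form with 2 catalytic domains and a short form known from testis, with its own start within the gene. The long transcript, of 4906 bases, had 21.4 FPKM in DKO against 16.7 in Ctrl (log2 0.36, authors' q = 0.0220 in the isoform table). The short transcript, of 3129 bases, was at 1.35 and 0.955 FPKM (log2 0.50, authors' q = 0.897). The long form held 94.1% of the gene's FPKM in DKO and 94.6% in Ctrl.

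The lower total of Agtr1a in DKO lay in a single start site group. The annotated transcript, of 2284 bases, had 12.8 FPKM in DKO against 12.6 in Ctrl (log2 0.03, authors' q = 0.985). A variant that shares at least 1 splice junction with it, of 2079 bases and from another start, was at 12 and 17.4 FPKM (log2 -0.54, authors' q = 0.276). The variant made up 48.3% of the gene's FPKM in DKO and 58.1% in Ctrl. The coding table holds the annotated transcript only, so its Agtr1a value covers 41.9% of the gene's FPKM in Ctrl.

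For Ece1, the 2 start site groups had ratios of opposite sign. The main group had 22.2 FPKM in DKO against 19.3 in Ctrl (log2 0.20, authors' q = 0.632), and the minor one at 3.45 and 5.38 FPKM (log2 -0.64, authors' q = 0.700). The main group is a variant transcript of 4619 bases, and the transcript that matches the annotation, of 4816 bases, was at 1.65 and 1.76 FPKM. For Ednrb, the main transcript of 3878 bases was at 6.08 and 6.42 FPKM (log2 -0.08) and the minor one of 3989 bases at 2.27 and 1.77 (log2 0.36), neither called. Whether the shares of starts differed between genotypes was not tested, and a model of the reads separates transcripts that overlap.

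**Figure D3:**
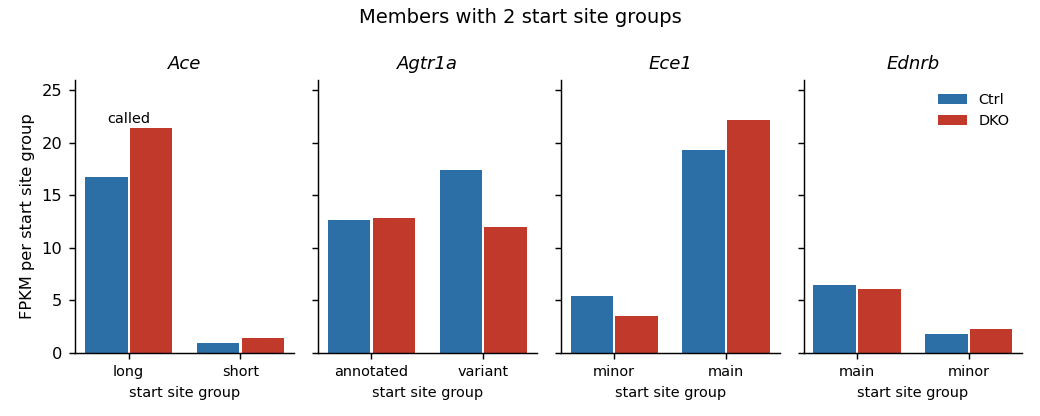
FPKM per start site group (vertical axis) for the 4 genes with 2 groups, Ctrl in blue and DKO in red, 1 value per genotype. Only the group of the long Ace transcript is called (21.4 against 16.7 FPKM), and for Agtr1a the variant is at 12 against 17.4 FPKM while the annotated group is at 12.8 and 12.6.

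Other genes of the pathway were taken as 6 lists with 112 loci, of which 84 were tested. Of these, 15 were called higher and 2 lower in DKO (20.2%, beside the 7.36% of all tested genes). Of the 17, 12 stand in the list of response genes, which has 20 of the 84 tested genes. That list was put together with earlier results of these data known, so the 20.2% is no independent evidence. No gene was called in the lists of endothelin processing, renin-angiotensin or aldosterone genes. Among endothelin processing and breakdown genes, Cuffdiff called 0 of 5 tested (1 by unadjusted p under 0.05, Mme), with a median log2 of 0.17. The precursor convertase genes Furin (27.8 against 29.7 FPKM) and Pcsk6 (27.7 against 24.5) and the other converting enzyme gene Ece2 (8.87 against 7.65) had the highest levels. Edn2 was at 0.0563 FPKM in DKO and listed at 0 in Ctrl, and Kel, whose product can mature endothelin-3, was at 0.00891 and 0.00994 FPKM.

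Among enzymes and receptors of the renin-angiotensin system, 0 of 15 tested were called by Cuffdiff (2 by unadjusted p under 0.05, Enpep and Anpep), with a median log2 of 0.07. Renin was listed at 0 in both genotypes (1 locus for Ren1 and Ren2), as was Ctsg. The highest levels belonged to the lysosomal protease gene Ctsd (1042 against 933 FPKM), Mtus1, which encodes an AT2-interacting protein (85.5 against 76.1), and the aminopeptidase gene Lnpep (26.7 against 26.3). The chymase genes Cma1 (1.49 against 1.52 FPKM) and Mcpt4 (2.30 against 2.54), whose products can form angiotensin II without Ace, were chosen after their values were seen. Aldosterone and mineralocorticoid genes held 0 called of 6 tested by Cuffdiff (0 by unadjusted p under 0.05), with a median log2 of 0.02. Among them were the receptor target genes Tsc22d3 (70.7 against 67.7 FPKM) and Sgk1 (51.0 against 57.4) and the glucocorticoid receptor gene Nr3c1 (25.1 against 24.0).

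Among Gq and G12/13 signaling genes, 3 of 27 tested were called higher and 1 lower, beside 4.30% and 3.06% of all tested genes. By unadjusted p under 0.05, 3 were higher and 2 lower. The median log2 was -0.01, with 12 ratios above 0 and 15 below. Grk5, a kinase that desensitizes G protein-coupled receptors, had 24.4 FPKM in DKO against 12.2 in Ctrl, 2.01-fold higher (authors' q = 0.00158). Prkcd, the delta form of protein kinase C, was at 10.6 and 7.33 FPKM (1.45-fold, authors' q = 0.00158). Arrb2, a beta-arrestin, was at 9.51 and 7.15 FPKM (1.33-fold, authors' q = 0.0445). Prkce, the epsilon form, fell, at 6.94 and 9.01 FPKM (log2 -0.38, authors' q = 0.00290). The genes with the highest levels were Rgs5, an inhibitor of Gq and Gi signaling found in pericytes (186 against 181 FPKM), Rhoa (90.5 against 81.1) and Gna12 (65.2 against 63.8), and the genes of the Gq subunits, Gnaq (10.6 against 10.7) and Gna11 (29.0 against 30.6), were not called either.

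Of other vasoactive systems, 1 of 11 tested genes was called (1 by unadjusted p under 0.05), beside 7.36% of all tested genes. The median log2 was -0.06. Apln, which encodes the peptide apelin, was lower at 5.12 FPKM in DKO and 7.13 in Ctrl (1.39-fold, authors' q = 0.00407), while its receptor gene Aplnr was at 16.7 in each. The adrenomedullin receptor subunit gene Ramp2 (49.3 against 50.2 FPKM) and the endothelial nitric oxide synthase gene Nos3 (11.6 against 12.6) were not called.

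The list of genes known to respond to angiotensin II or endothelin-1 had a median log2 of 0.57. Of its 20 tested genes, 12 were called higher and none lower, beside 4.30% and 3.06% of all tested genes. By unadjusted p under 0.05, 15 were higher and none lower. The list was put together with earlier results of these data known, so its direction is no independent evidence. Ctgf, a matricellular growth factor gene, had 108 FPKM in DKO against 47.3 in Ctrl. Rcan1, a calcineurin target, was at 71.0 and 52.9 FPKM. The oxidase genes Nox4 (1.12 against 0.697 FPKM), Cybb (3.89 against 2.50) and Ncf1 (3.06 against 2.06) were called. Also called were Fn1, Atf3, Ccl2, Myc, Col1a1 and Vcam1, with log2 ratios between 0.36 and 1.22, and the immediate-early gene Egr1 was at 95.3 and 86.3 FPKM and not called.

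In bulk ventricle, more or fewer cells of a type and more or less RNA per cell cannot be told apart. Endothelial markers, from cells that express Edn1, Ece1, Ednrb and Ace, had a summed level of 548 FPKM in DKO and 580 in Ctrl. Of these 12 markers 0 were called by Cuffdiff (1 by unadjusted p under 0.05, lower), the median log2 was -0.07, and Egfl7 led at 84.9 against 90.6 FPKM. Of the 6 endocardial markers Cuffdiff called 0 (0 by unadjusted p under 0.05), with sums of 38.2 and 37.0 FPKM, led by Cytl1 (9.44 against 10.8). Fibroblast markers, from cells that express Agtr1a, were called higher in 8 of 11 (10 by unadjusted p under 0.05), beside 4.30% of all tested genes. Gsn, Pdgfra and Tcf21 were not called, and all 11 had log2 ratios above 0. The sums were 1399 and 1117 FPKM, with a median log2 of 0.36. The 8 called were Dcn, Dpt, Col3a1, Lum, Col1a2, Col1a1, Postn and Mfap5, with log2 ratios between 0.31 and 1.12. Macrophage markers were called higher in 11 of the 12 found (12 by unadjusted p under 0.05), beside 4.30% of all tested genes. Cd163 was not called but was also higher (5.99 against 4.71 FPKM, authors' q = 0.0515). The sums were 423 and 274 FPKM and the median log2 was 0.59, and Lyz2 led (189 against 107 FPKM). The others of the 11 were C1qa, C1qb, C1qc, Csf1r, Cd68, Mrc1, Emr1, Mpeg1, Cx3cr1 and Ccr2, with log2 ratios between 0.39 and 1.58. Both marker groups were higher in DKO, as were Edn3, Agt, Ace and the called response genes, among which Col1a1 is also a fibroblast marker. With 1 value per genotype, a shared direction does not measure a link between them. The part of these cell types in the higher levels of Edn3, Agt, Ace and the response genes was not tested.

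Of 11 smooth muscle and pericyte markers 1 was called, Acta2 (378 against 302 FPKM), beside 7.36% of all tested genes. By unadjusted p under 0.05, 2 were higher and none lower. The sums, which include Acta2, were 775 and 697 FPKM, and the median log2 was 0.07. Mast cell markers, which include the chymase genes, summed to 8.65 and 8.49 FPKM, Schwann and neural markers to 9.91 and 9.41, and mesothelial markers to 2.49 and 2.12, with no called gene among the 5, 3 and 1 tested (0 by unadjusted p under 0.05). Wt1 (2.40 against 2.07 FPKM) led the mesothelial list, and Th was listed at 0. The 8 ventricular cardiomyocyte markers had log2 ratios from -0.31 to -0.12, with sums of 60207 and 69749 FPKM, and Cuffdiff called 0 (3 by unadjusted p under 0.05, all lower in DKO). Of 6 atrial markers 3 were tested, with a median log2 of -0.04. Nppa (1303 against 464 FPKM) was called higher and Kcnj3 (18.7 against 30.1) lower, beside 4.30% and 3.06% of all tested genes, so the atrial list had no shared direction.

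**Figure D4:**
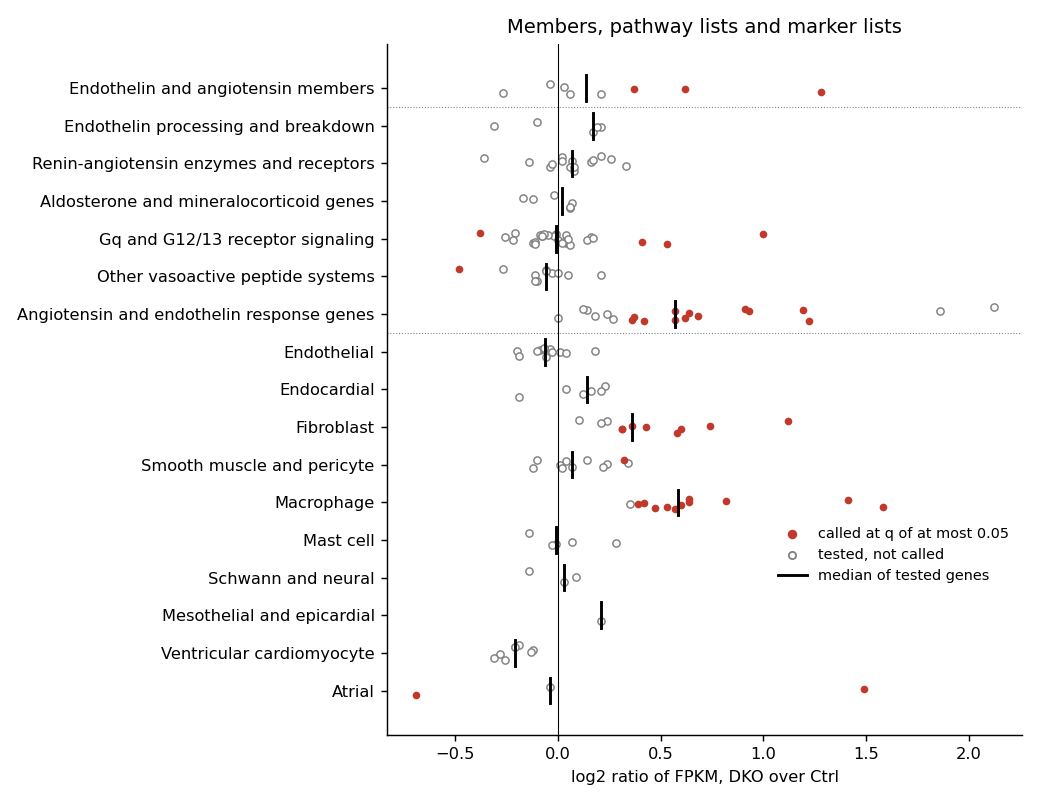
The log2 ratio of DKO over Ctrl (horizontal axis) for the tested genes of each list (rows), with called genes as red points, others as open circles and the median as a black bar, points being spread vertically at random for display. The response genes and the fibroblast and macrophage markers lie mostly above 0 (medians 0.57, 0.36 and 0.59), and the endothelial markers between -0.20 and 0.18.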

How the data were processed

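RNA of cardiac ventricles from 4 Ctrl and 4 DKO mice was sequenced single-end. Per the submitters' processing notes, the authors used the mouse build mm9 with TopHat2 2.0.9, Cuffdiff 2.1.1 and Cufflinks 2.1.1, while annotation and settings are not stated there. Per the file headers, the deposited tables hold 1 FPKM value per genotype for genes, isoforms, start site groups and coding sequences, and the authors' p-values and q-values. The deposited subset of the gene table was not used. The columns named CrePos and CreNeg were matched to DKO and Ctrl by the genotype labels, and 0 columns were left unmatched.

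The smallest p deposited was 5e-05, shared by 385 called genes. The q-values differed from Benjamini-Hochberg adjustment over the 12133 tested genes by at most 5.18e-07. No test across animals could be made here. Log2 ratios (DKO over Ctrl) were computed from the FPKM values, and log2 medians cover tested genes. The adjustment was tested on simulated data.

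The members and lists were chosen with earlier results of these data known. Besides the members, the rule for named genes took called pathway genes, the 3 highest by mean FPKM of each pathway list, and called or highest markers. Values of 3 genes are not reported here. Outside that rule, Agtr1b, Edn2, Kel, Mme, Enpep, Anpep, Ren1, Ren2, Ctsg, Cma1, Mcpt4, Gnaq, Gna11, Timp1, Spp1, Bdkrb2, Avpr1a, Myl7, Th and the markers not called were named after their values were seen. Adgre1 was found under its older symbol, Emr1, which the list also holds. Alternatives covered q, fold and FPKM thresholds, pseudocounts, rescaling and feature levels. Software was matplotlib 3.10.9, statsmodels 0.14.6, numpy 2.4.6, pandas 2.3.3, SciPy 1.17.1 and Python 3.11.15.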

Additional observations from a re-analysis of the deposited data

How the results depend on the processing

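The 3 called genes were 2 at a q under 0.01 (Edn3 and Ace) and 2 with a fold of at least 1.3 (Edn3 and Agt), and were again Edn3, Agt and Ace with a mean FPKM of at least 1, by start site groups and by coding sequences. The 2 called isoforms became 1, that of Edn3, at a q under 0.01 and with a fold of at least 1.3, both stricter by construction. The 17 called pathway genes lay between 13 and 16. Of 40 alternative log2 ratios of the 8 tested genes, 3 had the other sign, all of genes not called: Ednrb by its main isoform (-0.08), and Ece1 (-0.09) and Agtr1a (0.03) by coding sequences, which cover only part of the transcripts of the last 2. Agtr2 has no ratio. No paired analysis was possible because the tables hold 1 value per genotype, and leaving out a replicate was not possible for the same reason. The depth of the libraries is unknown here.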

Other observations

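Some genes of the lists had large ratios without a call. They were chosen after their values were seen. Timp1, an inhibitor of matrix proteases, had 10.9 FPKM in DKO against 2.50 in Ctrl (log2 2.12), q = 0.0886 in the authors' deposited table, and its locus overlaps Syn1. Spp1, which encodes osteopontin, was at 1.62 and 0.448 FPKM (log2 1.86), q = 0.243 in the authors' deposited table. Edn3, with a smaller log2 of 1.28, had q = 0.00158 in the authors' deposited table. The spread between animals behind these values is not known here.

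Among peptide receptors that were not tested, the bradykinin B2 receptor gene Bdkrb2 had 0.706 FPKM in DKO against 0.261 in Ctrl, and the vasopressin V1a receptor gene Avpr1a was at 0.486 and 0.761 FPKM.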
